A study of Mus musculus with 8 samples.

Results

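The mRNAs of 10 regulators of pluripotency and early embryo development were followed in fully grown oocytes at the germinal vesicle (GV) stage, with and without the deadenylases Cnot7 and Cnot8. The genes were picked by name (Pou5f1, Sox2, Nanog, Sall4, Klf4, Klf5, Klf17, Lin28a, Esrrb and Tfap2c), and each was found once among the 46078 genes of the count table. Of these 10, 8 passed the filter on low counts and could be tested, while Nanog and Klf5 were at or near 0 in every library.

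RNA-seq libraries formed 2 groups of 4, one from CNOT7&8 KO females and one from Zp3-Cre females as control, with 100 oocytes in each library. Both groups carry the Zp3-Cre transgene, which is driven by the promoter of a zona pellucida gene and so acts in growing oocytes and not in other cells. The KO oocytes also carry Cnot7 fl/fl and Cnot8 fl/fl alleles. The females had a C57BL/6J background, were 4 weeks old, and were injected with pregnant mare serum gonadotropin 48 h before the GV oocytes were collected, and cumulus cells were removed with hyaluronidase and pipetting. Nothing in the labels says how many animals gave the oocytes of a library, so p-values measure the spread between these libraries. In bulk samples, fewer cells of a type and less RNA per cell cannot be told apart.

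Pou5f1 encodes Oct4, a POU-domain factor that binds DNA together with the HMG-box protein Sox2, and with the homeobox protein Nanog these form the core of the network that keeps embryonic stem cells pluripotent. Sall4, Klf4, Klf5 and Esrrb are further transcription factors of that network, Tfap2c is an AP-2 factor of the trophectoderm and the germline, and Klf17 is a Krüppel-like factor. Lin28a is an RNA-binding protein that blocks the maturation of let-7 microRNAs. The oocyte stores a part of these mRNAs for the embryo, whereas Nanog is transcribed from the embryo's own genome. CCR4–NOT shortens poly(A) tails, and proteins bound to short elements in 3′UTRs can bring it to an mRNA.

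Sequence elements of that kind were looked up in the members' longest annotated 3′UTRs, on the strand of the mRNA, in GENCODE release M21 of the GRCm38 genome. The letters searched were TTTTAT (the cytoplasmic polyadenylation element, CPE), TGTAAATA (the Pumilio response element, PRE), ATTTA (the AU-rich element, ARE) and CTACCTC, the match to the seed of let-7. The let-7 microRNA itself is given first, from RefSeq (GRCm38.p6), with its seed (bases 2 to 8) in capitals. Below it stand the 4 seed matches found in the members, the 2 PREs, and CPEs of the 3 KLF and SOX mRNAs whose levels are contrasted further on, each with the element in capitals.
let-7a-5p: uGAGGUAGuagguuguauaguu
Lin28a, first let-7 seed match (chr4:134005178-134005207, minus strand): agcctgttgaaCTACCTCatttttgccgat
Lin28a, next let-7 seed match (chr4:134004540-134004569, minus strand): tcgccacaaacCTACCTCactgtgttgaaa
Sall4, let-7 seed match (chr2:168748929-168748958, minus strand): ctttaatttatCTACCTCaattatctttat
Esrrb, let-7 seed match (chr12:86519671-86519700, plus strand): gcttcctgcccCTACCTCagccagccggaa
Lin28a, PRE (chr4:134004352-134004381, minus strand): tggcctagttgTGTAAATAtaaatgtgttg
Tfap2c, PRE (chr2:172558261-172558290, plus strand): ttaatgggatcTGTAAATActtcttatgac
Sox2, CPE (chr3:34652270-34652299, plus strand): gtttttccccccTTTTATtttccgtagttg
Klf4, CPE (chr4:55527143-55527172, minus strand): tttaaataaacctataataTTTTATctgaa
Klf17, CPE (chr4:117758792-117758821, minus strand): ttactagaaagcTTTTATctcctgtcaacc

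A CPE was found in 8 of the 10 members, against 56.2% of the 15157 tested protein-coding genes with a 3′UTR of at least 50 bases. Pou5f1 had none of the 4 elements in its 3′UTR of 221 bases, where the median over those genes was 1273 bases. Lin28a, with a 3′UTR of 2775 bases, had all 4 kinds, namely 2 CPEs, 1 PRE, 5 AREs and 2 let-7 seed matches. Tfap2c had 5 CPEs, 1 PRE and 6 AREs in 1246 bases. The last CPE of Klf4 lies 5 bases before the annotated end. Among the tested genes, a PRE was held by 11.8%, an ARE by 70.4% and a let-7 seed match by 11.3%. The elements overlap in places, as in Tfap2c, where an ARE shares bases with a CPE. These matches describe letters in an annotation, and no binding was measured.

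Counts summed to between 8639444 and 44092144 per library. The targeted gene Cnot8 was at 168 ± 20 CPM (the count of a gene relative to the TMM-scaled total, SD, n = 4) in the controls against 35.2 ± 1.40 CPM in the KO group. Cnot7 was at 933 ± 77.3 CPM in the controls against 719 ± 70.8 CPM in the KO group, lower at an adjusted p of 0.0105 (edgeR's quasi-likelihood test). The counts are per gene, and reads on the deleted exons were not examined. By immunoblot, the paper reports both proteins as depleted in the KO oocytes. Control replicate 1 and KO replicate 4, the deepest library of each group, stood apart across genes by a chi-square on raw counts. This measure also rises with read depth, and the part of depth in it was not tested. Control replicate 1 differed from the other controls by a chi-square per degree of freedom of 141 to 210 (7.85 to 17.7 among the others), and KO replicate 4 by 40.7 to 91.8 (20.3 to 32.2 among the others), so values without both are given beside the results. The oocyte markers Gdf9 and Bmp15, both secreted growth factors, were at 4401 ± 448 and 3370 ± 550 CPM in the controls against 4186 ± 678 and 3078 ± 269 CPM in the KO group. All 12 oocyte markers were tested. At an adjusted p of 0.05, 2 were higher (31.2% of all tested genes were) and 6 lower (24.1% of all, and 55.2% of genes of 100 CPM or more). Of the lower markers, 1 was past 2-fold (Mos, the kinase that holds meiosis at metaphase, at -1.28). The sums of all 12 markers were 16455 to 17972 CPM in the controls against 13828 to 16085 CPM in the KO group. The 15 granulosa and cumulus cell markers summed to 107 to 124 CPM in the controls against 132 to 215 CPM in the KO group, of which Cyp19a1 (aromatase) held 58.5 ± 8.01 and 31.3 ± 6.02 CPM and Kitl (KIT ligand) 16.0 ± 3.63 and 43.4 ± 10.3 CPM. Of the 14 that were tested, 6 rose past 2-fold (23.8% of all tested genes did) and 0 fell past it (6.56% of all, and 0 markers also at an unadjusted p under 0.05), Cyp19a1 being lower by less, while Foxl2, a defining granulosa factor, had at most 1 count in any library. The 11 markers of stroma, theca, endothelium and blood summed to 89.5 to 112 CPM in the controls against 77.6 to 92.4 CPM in the KO group, mostly Pecam1 (an endothelial adhesion protein) at 96.2 ± 8.91 and 82.2 ± 6.26 CPM. Of these, 2 of the 8 tested rose and 0 fell (0 also at an unadjusted p under 0.05). Cdh5, the other endothelial marker of the list, had at most 3 counts in any library, and the globins Hba-a1 and Hbb-bs were at 0 in every library. The cell type behind the Pecam1 reads was not tested.

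Among the 8 tested members, Sox2 and Klf4 were upregulated in CNOT7&8 KO oocytes, Pou5f1 and Lin28a fell by less than 2-fold, and Sall4, Klf17, Esrrb and Tfap2c did not pass the test. A gene was called differentially expressed (DEG) when it changed at least 2-fold and its p, from edgeR's quasi-likelihood test adjusted over 19241 genes after Benjamini and Hochberg, was 0.05 or lower. By this rule 2 members were upregulated, where the background was 23.8% of all tested genes, and 0 were downregulated, where it was 6.56%. By adjusted p alone, 2 members were higher in KO (background 31.2%) and 2 lower (background 24.1%). The number downregulated was also 0 by edgeR's exact test, by DESeq2, and at an unadjusted p under 0.05. The members' shares lie near the background, so nothing follows from the counts about the 10 genes as a set. Their median log2 fold change was 0.22, beside 0.12 over all tested genes.

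**Figure D1:**
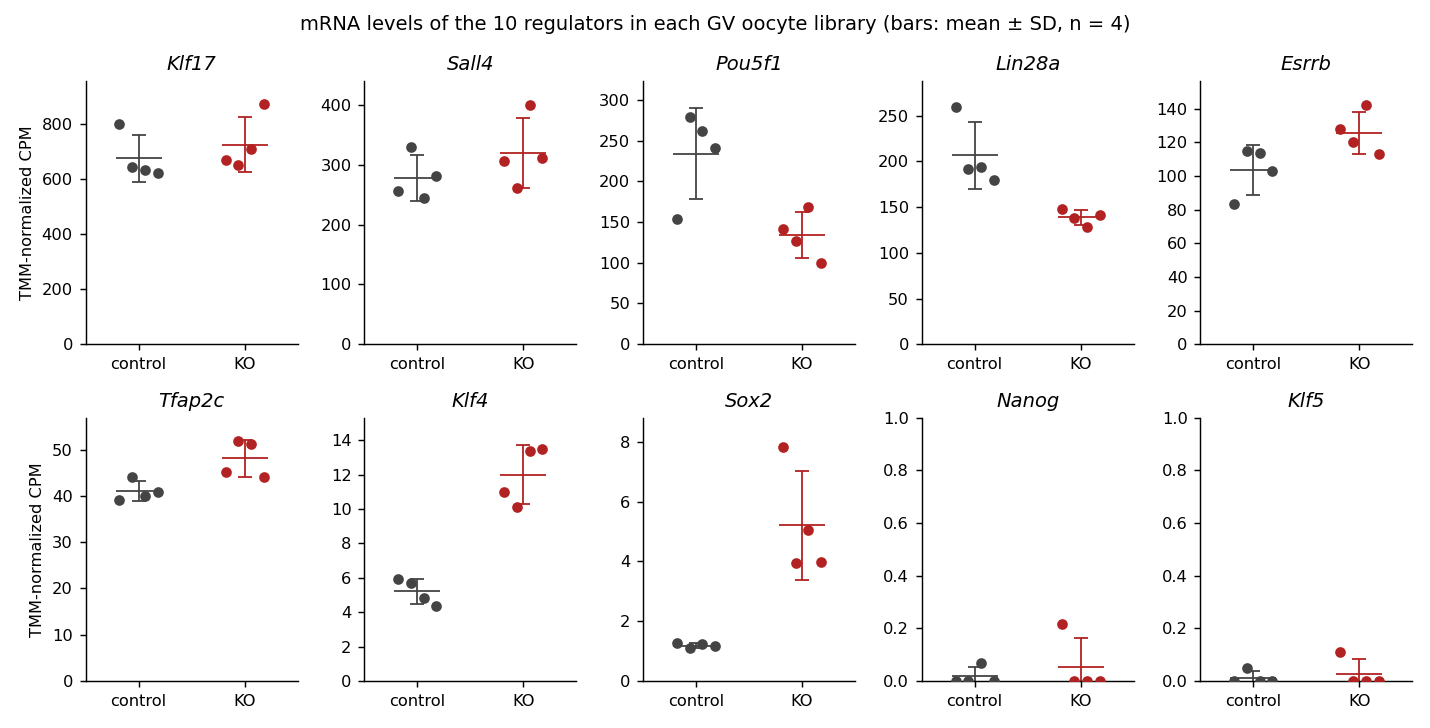
TMM-normalized CPM (vertical axes, starting at 0) of the 10 regulators in 4 control and 4 CNOT7&8 KO libraries. Points are libraries, replicates 1 to 4 from left to right, and bars are the mean ± SD. Sox2, Klf4 and Tfap2c lie higher and Lin28a lower in every KO library than in any control library, while the groups overlap for Pou5f1, Sall4, Klf17 and Esrrb.

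Sox2 (ENSMUSG00000074637, a gene with 1 exon on chromosome 3 from 34650405 to 34652461, plus strand) showed the larger increase. Its values were 1.26, 1.09, 1.22 and 1.17 CPM in control replicates 1 to 4 and 7.82, 3.95, 5.06 and 3.99 CPM in KO replicates 1 to 4. The control libraries lay within a narrow range, the KO libraries did not overlap them, and KO replicate 1 was the highest. These values rest on 16 to 47 reads per control library and on 72 to 117 per KO library, so that Sox2 was a scarce mRNA in both groups. The means were 1.18 ± 0.0751 (SD, n = 4) and 5.20 ± 1.82 CPM (SD, n = 4), a log2 fold change of 2.10 (standard error 0.27, 95% interval 1.52 to 2.69, adjusted p = 4.73e-05, edgeR's quasi-likelihood test). Without control replicate 1 and KO replicate 4 it was 2.25, and over the 8 fits that each left out 1 library it ran from 1.89 to 2.24, past both thresholds each time.

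Sox2 lies inside the span of the long noncoding RNA Sox2ot, on the same strand and with 0 bases of shared exon. Sox2ot had 1.58 ± 0.291 CPM in the controls against 4.91 ± 0.668 CPM in the KO group (SD, n = 4 each), a log2 fold change of 1.62 (standard error 0.22). The reads on Sox2 for each read on Sox2ot numbered 0.647 to 1.06 in control and 0.736 to 1.95 in KO libraries, 2 ranges that overlap. The part of unspliced Sox2ot RNA in the counts of Sox2 was not tested.

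Nanog (ENSMUSG00000012396, chromosome 6) had 1 read in control replicate 3, 2 reads in KO replicate 1 and 0 in the other 6 libraries. All values were under 3 counts, taken as the smallest detectable signal, which made 0.0802 CPM in the deepest library (control replicate 1) and 0.326 CPM in the shallowest (KO replicate 1). No change of Nanog was detectable at this depth, and no fold change is given.

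Pou5f1 (ENSMUSG00000024406, chromosome 17 from 35506018 to 35510772, plus strand) went the other way from Sox2, its partner on DNA. Control replicates 1 to 4 had 154, 279, 262 and 241 CPM, and KO replicates 1 to 4 had 141, 127, 168 and 99.3 CPM. Control replicate 1 lay among the KO libraries, and the other control libraries lay above all 4 of them. The mean fell from 234 ± 55.5 to 134 ± 28.6 CPM (SD, n = 4 each), a log2 fold change of -0.81 (standard error 0.19, 95% interval -1.23 to -0.39, adjusted p = 0.00368, edgeR's quasi-likelihood test). An exact permutation test over the 70 assignments of the libraries gave a two-sided p of 0.0571. With library size as the only scaling, the log2 fold change was -0.53 and missed the threshold (adjusted p = 0.0505). It was -0.97 without control replicate 1, -0.68 without KO replicate 4 and -0.84 without both.

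Sall4 (ENSMUSG00000027547, chromosome 2 from 168748332 to 168767943, minus strand), a zinc finger factor needed for the early embryo, was one of the abundant members. Its values were 257, 331, 245 and 281 CPM in control replicates 1 to 4 and 306, 261, 400 and 312 CPM in KO replicates 1 to 4. The groups overlapped, and the log2 fold change of 0.20 had a 95% interval from -0.11 to 0.51 (adjusted p = 0.25, edgeR's quasi-likelihood test). It was 0.17 without control replicate 1 and KO replicate 4.

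The 3 KLF genes differed in level and in change. Klf4 (ENSMUSG00000003032, chromosome 4 from 55527143 to 55532466, minus strand) had 5.93, 5.72, 4.83 and 4.37 CPM in control replicates 1 to 4 and 11, 10.1, 13.4 and 13.5 CPM in KO replicates 1 to 4. Every KO library was above every control library. The log2 fold change was 1.19 (standard error 0.18, 95% interval 0.81 to 1.58, adjusted p = 0.000142, edgeR's quasi-likelihood test), from 5.22 ± 0.739 to 12.0 ± 1.73 CPM (SD, n = 4 each). Without control replicate 1 and KO replicate 4 it was 1.20, and it ran from 1.12 to 1.30 over the 8 fits without 1 library. Granulosa cell markers did not move as one, since 6 of the 14 tested were upregulated like Klf4 and Sox2 and 8 were not DEGs. Cyp19a1, the most abundant marker, fell by less than 2-fold (log2 fold change -0.90). All 6 upregulated markers were above every control in KO replicates 1, 2 and 3, and in KO replicate 4 this held for 3 of them (Fshr, Kitl and Ptgs2) and not for the other 3 (Inha, Inhba and Fst). Their part in the values of Klf4 and Sox2 was not tested.

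Klf17 (ENSMUSG00000048626, chromosome 4 from 117757836 to 117765648, minus strand) was the most abundant member. It had 802, 644, 634 and 625 CPM in control replicates 1 to 4 and 670, 651, 712 and 873 CPM in KO replicates 1 to 4. The 2 highest values, in control replicate 1 and KO replicate 4, belong to different groups. The log2 fold change of 0.10 had a 95% interval from -0.17 to 0.38 (adjusted p = 0.50, edgeR's quasi-likelihood test), and without those 2 libraries it was 0.096. Klf5 (ENSMUSG00000005148, chromosome 14) had 1 read in control replicate 2, 1 read in KO replicate 1 and 0 elsewhere, so it lay under the detection floor in both groups.

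Lin28a (ENSMUSG00000050966, chromosome 4 from 134003330 to 134018841, minus strand) was the only member whose KO libraries all lay under its control libraries (background 21.4%). It had 260, 192, 194 and 180 CPM in control replicates 1 to 4 and 148, 138, 128 and 141 CPM in KO replicates 1 to 4. Control replicate 1 was the highest, and the KO libraries agreed closely with each other. The mean fell from 206 ± 36.4 to 139 ± 8.05 CPM (SD, n = 4 each), a log2 fold change of -0.58 (standard error 0.13, 95% interval -0.85 to -0.30, adjusted p = 0.00219, edgeR's quasi-likelihood test). Without control replicate 1 and KO replicate 4 it was -0.45, and it was -0.29 with library size only, still past an adjusted p of 0.05. The antisense gene Gm13061 shares 234 bases of exon with Lin28a and had 8 to 82 counts, at most 1.49% of those of Lin28a. The strand setting of the counting is not given in the sources used here.

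Esrrb (ENSMUSG00000021255, chromosome 12 from 86361117 to 86521628, plus strand), an orphan nuclear receptor, had 83.2, 115, 114 and 103 CPM in control replicates 1 to 4 and 128, 120, 142 and 113 CPM in KO replicates 1 to 4. KO replicate 4 lay inside the control range. The log2 fold change was 0.28 (95% interval -0.00065 to 0.56, adjusted p = 0.0832, edgeR's quasi-likelihood test), and 0.23 without control replicate 1 and KO replicate 4, past the threshold by a small margin (adjusted p = 0.0453).

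Tfap2c (ENSMUSG00000028640, chromosome 2 from 172549593 to 172558622, plus strand) had 39.1, 44.1, 40.1 and 40.9 CPM in control replicates 1 to 4 and 45.3, 51.8, 51.2 and 44.2 CPM in KO replicates 1 to 4. The lowest KO library was just above the highest control library. With Sox2 and Klf4, it made 3 members higher in every KO library (background 27%), but its log2 fold change of 0.23 had a 95% interval from -0.016 to 0.48 and did not pass the test (adjusted p = 0.102, edgeR's quasi-likelihood test). Without control replicate 1 and KO replicate 4 it was 0.25.

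**Figure D2:**
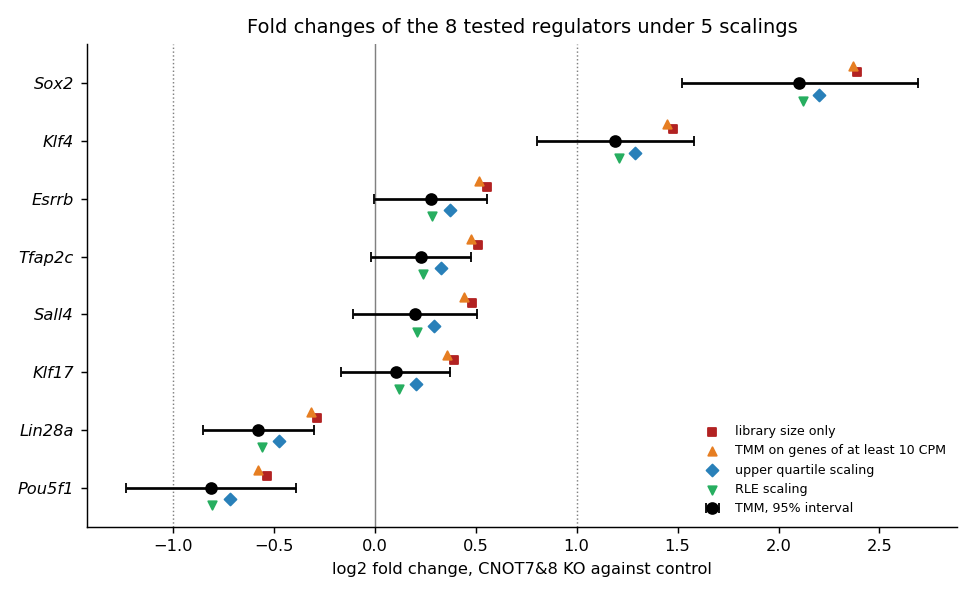
Log2 fold change of the 8 tested regulators, CNOT7&8 KO against control (horizontal axis). Black points with bars are the TMM estimates and their 95% intervals, coloured marks are the same estimate under 4 other scalings, and dotted lines mark a 2-fold change. Sox2 and Klf4 stay past 2-fold under all 5 scalings, Pou5f1 and Lin28a stay under 0, and the other 4 sit between 0.10 and 0.56.

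The choice of scaling shifted every member the same way as all genes. The median log2 fold change of all tested genes was 0.12 with TMM, 0.22 with upper quartile scaling, 0.37 with TMM on genes of at least 10 CPM and 0.41 with library size only. With library size only, 6 members were higher and 1 lower at an adjusted p of 0.05, since Sall4 (0.48), Klf17 (0.39), Esrrb (0.56) and Tfap2c (0.51) then passed it and Pou5f1 did not. A comparison free of scaling was therefore added after the values were seen, the reads of a member for each read of Sall4 in the same library. Pou5f1 had 0.601 to 1.07 reads per Sall4 read in control and 0.318 to 0.486 in KO libraries, without overlap. Lin28a had 0.580 to 1.01 in control and 0.321 to 0.529 in KO libraries, also without overlap. For Pou5f1 the separation depends on the choice of Sall4. Control replicate 1 had 5767 reads of Pou5f1 and 29986 of Klf17, and KO replicate 1 had 1295 and 6170. Per read of Klf17, control replicate 1 thus lay below KO replicate 1. Klf4 rose against Sall4 from 0.0156 to 0.0231 in control to 0.0335 to 0.0432 in KO libraries, and Sox2 from 0.00328 to 0.00500 to 0.0127 to 0.0256. For Klf17, Esrrb and Tfap2c the ranges of this ratio overlapped, at 1.95 to 3.12 and 1.78 to 2.80 for Klf17. The mRNAs of the group thus changed unequally, whichever scaling is used.

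Levels of different genes were compared per length, as TMM-normalized CPM per kb of merged exons. In control oocytes the order was Klf17 (282 ± 35), Pou5f1 (104 ± 24.7), Lin28a (51.7 ± 9.11), Sall4 (50.3 ± 6.86), Esrrb (17.2 ± 2.47), Tfap2c (11.2 ± 0.595), Klf4 (1.71 ± 0.242) and Sox2 (0.575 ± 0.0365 CPM per kb, SD, n = 4 each). Lin28a and Sall4 overlapped, and each of the other neighbours was separated from the next in the 4 libraries. Klf17 exceeded 99.2% of the 19126 tested genes with a length, Pou5f1 97.4%, Klf4 49.9% and Sox2 36.8%. In KO oocytes Klf17 (303 ± 42.1) again came first, Pou5f1 (59.4 ± 12.7) and Sall4 (57.7 ± 10.5) overlapped, and Lin28a (34.7 ± 2.01 CPM per kb) lay below both. Sox2 reached 2.53 ± 0.883 and Klf4 3.93 ± 0.568 CPM per kb, with ranges that overlapped, and Sox2 then exceeded 51.6% of the genes. After the increase, Sox2 and Klf4 remained below the other 6 detected members in each library.

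**Figure D3:**
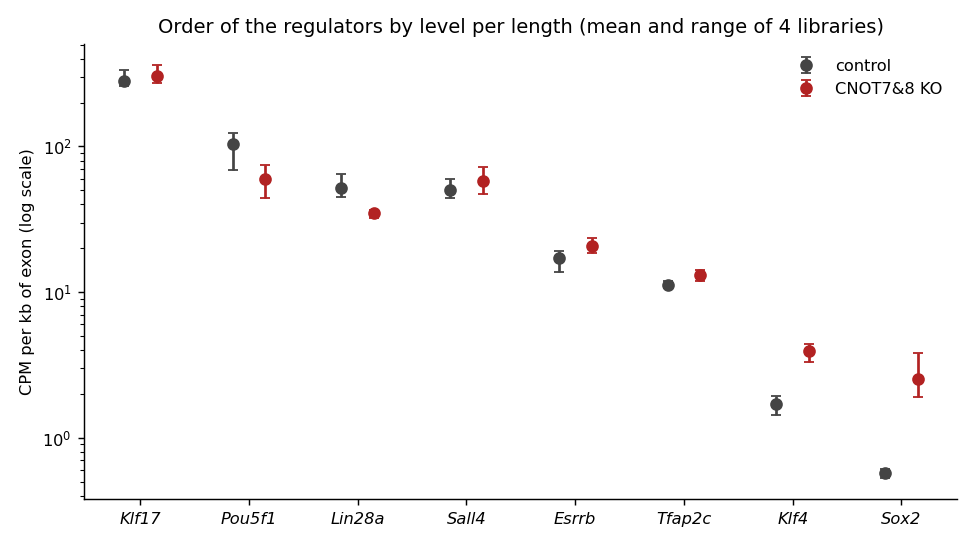
Level of the 8 detected regulators in CPM per kb of exon (vertical axis, log scale), as the mean and the range of 4 control or 4 CNOT7&8 KO libraries. The order runs from Klf17 (282 in control) to Sox2 (0.575 in control), and Pou5f1 and Sall4 come to lie together in KO oocytes.

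Fold changes of all genes varied with their abundance, so each member was set beside genes of its own level, as a description. Among the 2414 genes whose mean reached 100 CPM, the median log2 fold change was -0.37, and 55.2% were lower at an adjusted p of 0.05. Esrrb exceeded 90.3% of these genes in its log2 fold change, Sall4 87.5% and Klf17 84.1%. Lin28a exceeded 31.7% and Pou5f1 13.8% of them. Tfap2c exceeded 69.2% of the 6314 genes from 10 to under 100 CPM. Among the 5031 genes from 1 to under 10 CPM, where the median was 0.47 and 35.7% were upregulated, Sox2 exceeded 82.2% and Klf4 67.8%. The increases of Sox2 and Klf4 were thus within the range common at their level.

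**Figure D4:**
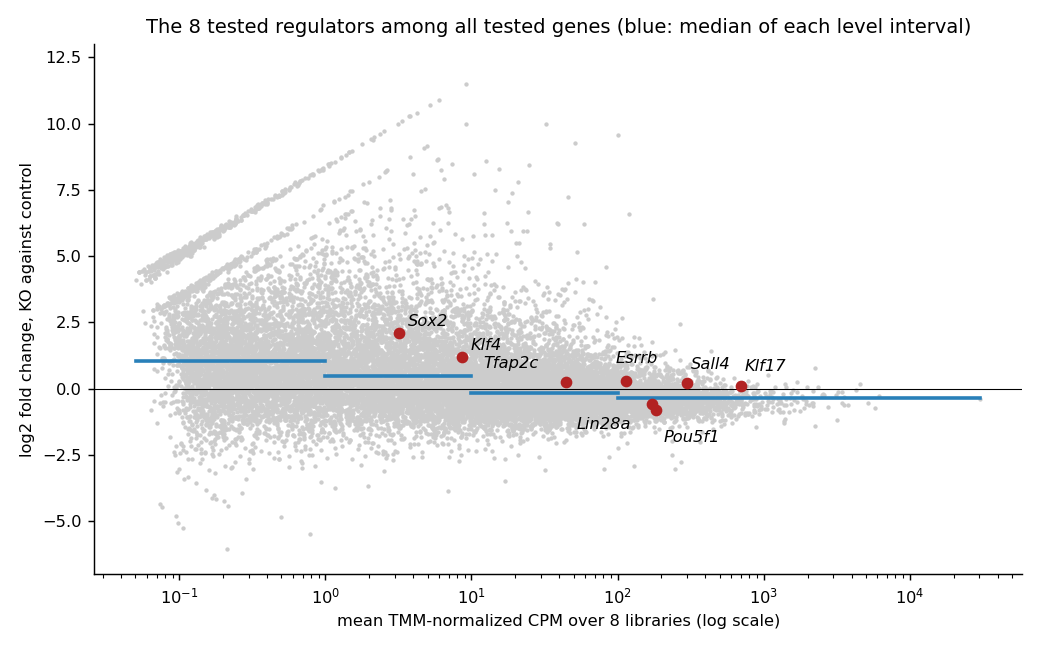
Log2 fold change, KO against control (vertical axis), against the mean TMM-normalized CPM over 8 libraries (horizontal axis, log scale). Grey points are the 19241 tested genes, blue lines the median of each level interval (1.05, 0.47, -0.17 and -0.37 from low to high), and red points the 8 tested regulators. Esrrb, Sall4 and Klf17 lie above the median of abundant genes, and Pou5f1 and Lin28a below it.

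Of 30 other listed genes of the pluripotency network, 22 were tested. Of these, 6 were upregulated (27.3%, near the 23.8% of all tested genes), 1 was downregulated (4.5% against 6.56%) and 15 were not DEGs, with a median log2 fold change of 0.70 beside 0.12 over all tested genes. Among the upregulated genes, Nr0b1 reached 0.2 CPM in no control library, so it passed the filter through KO libraries and could only be called higher. Zfp281, a zinc finger repressor in embryonic stem cells, rose from 5.96 ± 1.74 to 25 ± 3.31 CPM (SD, n = 4 each), a log2 fold change of 2.05 (standard error 0.21). Dppa4, a chromatin protein of pluripotent cells, rose from 22.7 ± 1.88 to 76.5 ± 4.91 CPM, and Zfp42 (Rex1) from 1.27 ± 0.396 to 4.18 ± 0.857 CPM. For these 3 genes all KO libraries were above all control libraries (background 27%). They were picked as the upregulated genes with the largest change, so this separation adds nothing to their calls. The 2 most abundant genes of the list were lower by less than 2-fold. Tcl1, a coactivator of AKT supplied by the oocyte, had 1741 ± 164 CPM in the controls against 1118 ± 52.2 CPM in the KO group (log2 fold change -0.64), and Dppa3, a maternal-effect gene, had 1038 ± 43.4 and 848 ± 80.7 CPM (-0.29). The call of Dppa3 (adjusted p = 0.0261, edgeR's quasi-likelihood test) was lost with library size only (-0.009, adjusted p = 0.938) and in 8 other alternatives, among them the fits without control replicate 3 (-0.28), control replicate 4 (-0.30), KO replicate 3 (-0.23) or KO replicate 4 (-0.24). Il6st (gp130), the signalling subunit of the LIF receptor, was the downregulated gene, from 178 ± 33.2 to 85.9 ± 10.8 CPM (log2 fold change -1.05). Its value was -0.91 without control replicate 1, -0.96 without KO replicate 3 and -0.76 with library size only, under 2-fold each time. The 8 genes that were not tested, Fgf4, Nodal and Lefty1 among them at 0 counts, were scarce in both groups.

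Of 20 early lineage regulators, 15 were tested, and 6 were upregulated (40% against 23.8% of all tested genes) and 0 downregulated (6.56% of all), with a median log2 fold change of 0.18. The number downregulated was also 0 by edgeR's exact test, by DESeq2 and at an unadjusted p under 0.05, while 3 genes were lower at an adjusted p of 0.05 by less than 2-fold. Gata3, a trophectoderm factor chosen here after its values were seen, was nearest to the limit (8.81 ± 0.845 to 4.48 ± 1.03 CPM, log2 fold change -0.98). The number downregulated was 1 without control replicate 1, control replicate 4, KO replicate 1 or KO replicate 2. The upregulated genes were all under 10 CPM, where 35.5% (under 1 CPM) and 35.7% (from 1 CPM) of all genes were upregulated. Eomes and Sox17 among them reached 0.2 CPM in no control library. They passed the filter through KO libraries and could only be called higher. Tead4, the TEAD factor that starts the trophectoderm programme, rose from 0.566 ± 0.192 to 3.64 ± 0.753 CPM (a log2 fold change of 2.66), and Gata6, a primitive endoderm factor, from 0.973 ± 0.146 to 3.94 ± 0.977 CPM (2.02). The 2 most abundant genes of the list had values below 0. Yap1, the coactivator of TEAD factors, was at 392 ± 104 CPM in the controls against 319 ± 50.8 CPM in the KO group (log2 fold change -0.30, adjusted p = 0.175, edgeR's quasi-likelihood test), and Fgfr2, an FGF receptor, fell from 106 ± 7.56 to 64.5 ± 4.94 CPM (-0.71).

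A selection of 32 relatives from the POU, SOX, SALL, KLF, LIN28, estrogen-related receptor and AP-2 families, not complete for any large family, held 27 tested genes. Of these, 11 were upregulated (40.7% against 23.8% of all tested genes), 3 downregulated (11.1% against 6.56%) and 13 not DEGs. Their median log2 fold change was 1.16, beside 0.12 over all tested genes, but 17 of the 27 were under 10 CPM, where the medians of all genes were 1.05 (under 1 CPM) and 0.47. Among the upregulated relatives, Sox11 and Sall3 reached 0.2 CPM in no control library. They passed the filter through KO libraries and could only be called higher. Klf8 rose from 1.13 ± 0.484 to 13.4 ± 0.850 CPM (a log2 fold change of 3.53), Klf9 from 0.576 ± 0.188 to 5.49 ± 0.673 CPM (3.26) and Sox4 from 1.57 ± 1.09 to 8.34 ± 4.47 CPM (2.38). Sox4 had 12.6, 11.7, 5.43 and 3.64 CPM in KO replicates 1 to 4, and 2.86 CPM in control replicate 3, the highest control. In KO replicate 4, 3 of the 6 upregulated granulosa markers were above every control and 3 were not. Their part in the values of Sox4 was not tested. The 2 most abundant relatives, Klf11 (109 ± 8.84 and 151 ± 4.67 CPM) and Pou2f1, the ubiquitous Oct1 (73.2 ± 10.4 and 123 ± 31.6 CPM), rose by less than 2-fold. Pou2f1 was past 2-fold with library size only (1.04). The downregulated relatives were Tfap2b (6.79 ± 0.717 to 3.21 ± 0.856 CPM, -1.10), Klf7 (55.0 ± 1.95 to 27.2 ± 1.84 CPM, -1.02) and Esrrg (25.7 ± 4.29 to 12.8 ± 2.19 CPM, -1.01). These lay at the 2-fold limit, and with library size only they were at -0.81, -0.73 and -0.72, so none of the 3 was then called. Leaving out KO replicate 3 also ended all 3 calls (-0.97, -0.97 and -0.88), as did leaving out KO replicate 4 (-0.95, -0.97 and -0.97). Klf7 also lost its call without control replicate 4 (-0.99) or KO replicate 1 (-0.99), and Esrrg without control replicate 1 (-0.90) or control replicate 2 (-0.996).

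Named after their values were seen were relatives of Lin28a and Sall4. Lin28b, the paralog of Lin28a, had 24.1 ± 3.43 CPM in the controls against 48 ± 7.12 CPM in the KO group. Lin28b was higher in every KO library than in any control library (background 27%). Its log2 fold change of 0.99 was just under the 2-fold limit, and past it in 11 of 18 alternatives, such as library size only (1.28), RLE scaling (1.01) and each fit without control replicate 1 (1.10), KO replicate 1 (1.01), KO replicate 2 (1.07) or KO replicate 3 (1.09). Sall2 rose from 16.0 ± 0.956 to 36.7 ± 3.22 CPM (a log2 fold change of 1.20), where Sall4 did not pass the test.

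The list of the let-7 axis around Lin28a held 15 genes, and 14 were found and tested. Among them 1 was upregulated (7.1% against 23.8% of all tested genes), 3 were downregulated (21.4% against 6.56%) and 10 were not DEGs (median log2 fold change -0.33). Only 2 of the 14 were under 10 CPM. Of all genes from 10 to under 100 CPM, 12.7% were upregulated and 8.3% downregulated, with a median log2 fold change of -0.17. At 100 CPM or more these values were 1.57%, 6.05% and -0.37. The upregulated gene of the list was Igf2bp1, an RNA-binding protein whose mRNA is a classical let-7 target, from 0.50 ± 0.107 to 5.34 ± 1.33 CPM (a log2 fold change of 3.36). Hmga2, another classical let-7 target, fell from 18.5 ± 2.56 to 8.08 ± 1.81 CPM (-1.21, standard error 0.19). Dis3l2, the exonuclease that degrades uridylated pre-let-7, fell from 16.4 ± 2.08 to 7.32 ± 0.378 CPM (-1.16), and Xpo5, which exports pre-microRNAs from the nucleus, from 105 ± 11.2 to 51.7 ± 5.37 CPM (-1.02). The 2 most abundant genes were Dicer1, which cuts pre-microRNAs and rose from 892 ± 150 to 1266 ± 133 CPM (0.51), and Igf2bp2, which fell from 330 ± 40.3 to 205 ± 7.89 CPM (-0.69). With library size only, Hmga2 (-0.92), Dis3l2 (-0.88) and Xpo5 (-0.74) were under 2-fold, and Xpo5 was also under it without control replicate 1 (-0.95), KO replicate 1 (-0.97), KO replicate 2 (-0.98) or KO replicate 3 (-0.96). Mature let-7 was not measured in these libraries.

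**Figure D5:**
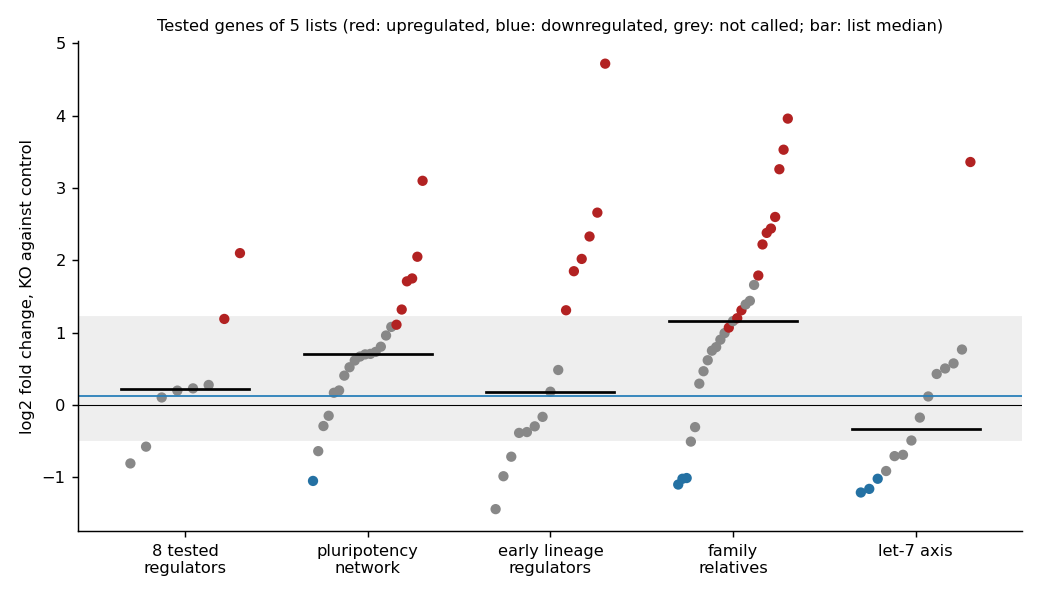
Log2 fold change, KO against control (vertical axis), of the tested genes of 5 lists, sorted within each list. Red points are upregulated and blue points downregulated DEGs, black bars are list medians, and the blue line and grey band are the median (0.12) and the middle quartiles of all tested genes. The selected family relatives have the highest median (1.16) and the let-7 axis the lowest (-0.33). The lists differ in abundance, with which the fold changes of all genes varied.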

How the data were processed

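RNA of GV oocytes was measured in 4 CNOT7&8 KO and 4 Zp3-Cre libraries. The authors made 150-bp read pairs from stranded libraries amplified with 11 PCR cycles. Their methods name the TruSeq Stranded mRNA LT kit and describe the purification of mRNA as based on ribosomal RNA depletion. The part of poly(A) tail length in the counts was not tested. The authors mapped the reads to GRCm38 with STAR 2.6.1d (version per the submitters' processing notes) through nf-core/rnaseq. They deposited raw counts per gene, without normalization. The counting tool, annotation and strand setting are not given in the sources used here. Counts were tested with edgeR 4.0.16 (R 4.3.3) by the quasi-likelihood test on genes with at least 0.2 CPM in 2 libraries, with TMM scaling and Benjamini-Hochberg adjustment. CPM values are counts over the TMM-scaled library size. Standard errors are the log2 fold change over the root of the F statistic. Permutation tests were exact, two-sided, with a smallest p of 0.0286.

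Other fits used edgeR's exact test, DESeq2 1.42.0, other scalings, other filters, the replicate number as a block, and leaving out libraries. In simulated data of 19241 genes with the real means and library sizes, 200 genes were changed by 2 on the log2 scale. The quasi-likelihood test recovered 171 of these, with 1 false call. In the real data 23.8% of tested genes were upregulated, many more than were changed in the simulation. The false-call count therefore does not carry over to the real data.

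The members and lists were chosen with earlier results of these data known. Genes named beside the members were, from each list, up to 3 upregulated and 3 downregulated genes with the largest change and a mean of at least 1 CPM, and the 2 most abundant. Of the gene identifiers, 98.0% were found in GENCODE release M21. A floor of 3 counts allows for counting error and nothing else, because reads copied by PCR are not separate molecules.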

Additional observations from a re-analysis of the deposited data

Results flagged for a closer look

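Control replicate 1 was far from the other 3 controls in 3 of 20 groups of 4 libraries examined (a Dixon ratio above the 95% limit, which about 1 group would pass by chance). Klf17 was at 802 CPM there and at 625 to 644 CPM in the others, Lin28a at 260 CPM against 180 to 194 CPM, and Cnot7 at 1049 CPM against 886 to 900 CPM.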

How the results depend on the processing

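The calls of Sox2 and Klf4 as upregulated and the count of 0 downregulated members held in all 18 alternatives, and no log2 fold change of a member changed sign. The 2 members higher at an adjusted p of 0.05 became 6 with library size only, 4 with upper quartile scaling, 6 with TMM restricted to genes of 10 CPM or more and 4 with a filter of 1 CPM in 4 libraries, and the 2 lower became 1 with library size only. With library size only, upper quartile scaling or TMM restricted to genes of 10 CPM or more, downregulated network genes and family relatives each numbered 0. With the filter of 1 CPM in 4 libraries, downregulated network genes were 0, upregulated lineage regulators 3 and downregulated relatives 1. Upregulated genes of the let-7 axis became 2, and downregulated ones 0, with library size only and with TMM restricted to genes of 10 CPM or more. Without control replicate 1 and KO replicate 4 together, 0 relatives were downregulated and 2 let-7 axis genes upregulated. Leaving out 1 library gave 0 to 1 downregulated network genes, 0 to 1 downregulated lineage regulators, 0 to 3 downregulated relatives (0 without KO replicate 3 or 4) and 1 to 2 upregulated let-7 axis genes (2 without control replicate 1). The causes were not tested.

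The labels share replicate numbers, but same-numbered libraries did not deviate together (r = -0.13, -0.084, 0.21 and -0.24). With the replicate number as a block, 2 members were upregulated and 0 downregulated, 2 were higher and 2 lower at an adjusted p of 0.05, and the log2 fold changes of Pou5f1, Sox2, Klf4 and Lin28a were -0.80, 2.10, 1.19 and -0.56. The order of all 10 members by level held with the length of the longest transcript, and with any annotated 3′UTR 9 members had a CPE in place of 8. Depth limits Nanog and Klf5, which had at most 2 counts in a library.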
